A study of Mus musculus with 2 samples.

Results

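DNA repair and Fanconi anemia (FA) genes were followed in endothelial cells (EC) sorted from the mouse aorta-gonad-mesonephros region (AGM). Members were taken from the expression table by a fixed pattern of gene symbols for the FA, recombination, checkpoint, end joining, mismatch, excision and translesion repair pathways and the PARP family. The cohesin gene Rad21 was left out. The pattern found 82 genes of 12684. It uses no measured value, but the group was picked with earlier results of these data known. Fancf, Msh4 and Parp3 were not analysed here. AGM tissue came from embryos at E10.5, and both sorts took cells positive for CD31 and negative for CD117 and CD45. The library called bulk EC came from littermates of genotype WT, with no gate on a reporter. The library called GFP-depleted EC came from embryos of genotype GFP+, which carry the transgene Runx1+23GFP, where GFP is driven by the +23 enhancer of Runx1, and it held the GFP-negative cells. The strain label is Runx1+23GFP for both libraries. The study's account of its results describes this comparison as GFP-positive hemogenic endothelium against vascular EC. Both the labels and the methods instead list GFP-negative cells and bulk EC. The labels were followed, and under the other reading each direction given here would refer to different cells. Neither the number of embryos in a sort nor its purity is given in the sources used here. Each group had 1 library, so no test, SD or replicate check is possible. A comparison describes these libraries, and the intervals given beside folds cover counting error only.

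The FA core complex places ubiquitin on the FANCD2 and FANCI proteins where a crosslink blocks a replication fork, and the modified pair directs incision of the crosslink and its completion by homologous recombination. The kinases ATM and ATR signal breaks and stalled forks to the checkpoint, while excision and mismatch repair remove damaged or mispaired bases. Loss of the FA pathway in people causes bone marrow failure, and blood stem cells, which arise from the endothelium of the AGM, are sensitive to its loss.

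Expression was deposited as RPKM, reads scaled by gene length and by library depth, which allows levels to be compared between genes. Each pair of RPKM values is given with GFP-depleted EC first. The steps between low RPKM values corresponded to about 14600000 reads of 100 bases in GFP-depleted EC, against 110000000 in bulk EC. A repair gene held a median of 604 reads in GFP-depleted EC, the fewest being 56.4 for Ercc2. In bulk EC the median was 4236 and the fewest 104 for Parp8. Of the 12 endothelial markers, 10 lay within 1.5 fold, including Pecam1, which encodes CD31, at 154 RPKM in both libraries, while Eng and Cldn5 were higher in bulk EC. Kit, which encodes the CD117 gated against, was still at 13.3 and 10.7 RPKM. Runx1 was at 0.62 and 0.66 RPKM, so its own level did not show the depletion. Markers of blood cells were higher in bulk EC. This was the case for 10 of 11 megakaryocyte genes (summed level 502 and 1671 RPKM), 8 of 8 erythroid genes (429 and 847 RPKM) and 4 of 5 myeloid genes (13.5 and 35.9 RPKM). Of all genes, 23.6% were higher in bulk EC by more than 1.5 fold. The exception among the megakaryocyte genes, Clec1b (404 and 394 RPKM), made up most of their sum in GFP-depleted EC. Most of their sum in bulk EC was Pf4 (70.3 and 1112 RPKM). Mesenchyme genes were low (summed level 4.44 and 6.88 RPKM), with 4 of 6 higher in bulk EC. In that list 1 gene, Lum, passed 1.5 fold in the opposite direction, at 1.80 and 0.21 RPKM. Gp6 and Lyz2 were listed at 0 in GFP-depleted EC. The part of these cells in the results below was not tested. A lower level in a sorted population could come from fewer cells of a type or from less RNA per cell, which cannot be told apart.

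All 82 repair genes were detected in both libraries. Their median level was 6.38 and 6.92 RPKM, slightly under the medians of all genes (7.22 and 7.85 RPKM). Levels kept a similar order in the libraries, with a Spearman correlation of RPKM of 0.922 over the 82 genes, which share library and depth within each column. Apex1 (266 and 197 RPKM), the main endonuclease at abasic sites, was the highest, followed by Rad9 (127 and 123) of the checkpoint clamp and Ddb1 (120.5 and 148) of the ultraviolet damage sensor. The lowest in GFP-depleted EC were Ercc2, Ercc6, Msh5 and Parp8, each under 3 RPKM in both libraries. Over 10% of the exonic bases lie in another gene as well for 12 of the 82, among them Apex1 (61.7%), and without strand the reads there have no sure owner. The plot of levels by role shows a wide range within roles, from 2.39 to 266 RPKM for base excision and from 0.92 to 120.5 RPKM for nucleotide excision repair in GFP-depleted EC.

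**Figure D1:**
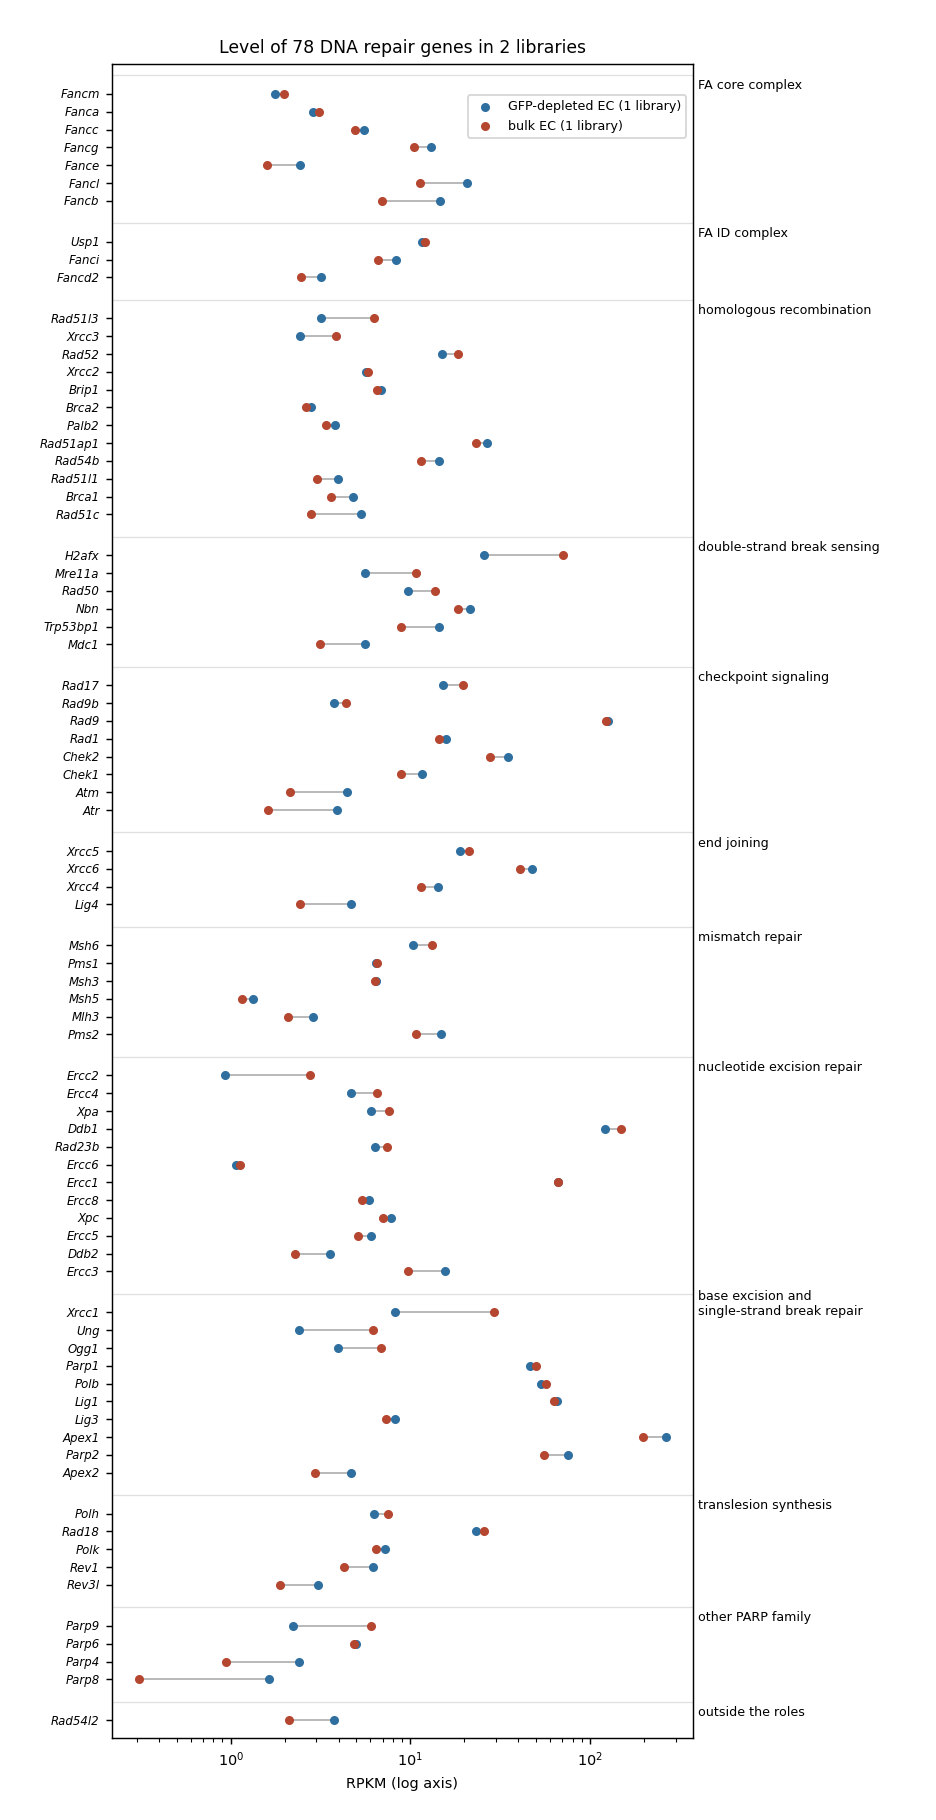
RPKM of 78 of the repair genes on a log axis in each of the libraries, by role. Each point is 1 gene in 1 library, and the levels of a gene in the libraries mostly lie close together, with Apex1 the highest at 266 and 197 RPKM.

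Calls were made where the plain RPKM ratio passed 1.5 fold. By this rule 26 repair genes were called, against 38.9% of all genes in either direction. Of these, 10 repair genes (12.2%) were higher in bulk EC, where 23.6% of all genes were, and 16 (19.5%) were higher in GFP-depleted EC, where 15.3% of all genes were. The other 56 lay within 1.5 fold, 33 of them within 1.2 fold. On a log2 scale, with 0.3 RPKM added to both values and GFP-depleted EC as the numerator, the median ratio was 0.13 over the repair genes and -0.02 over all genes. Positive log2 ratios mean higher in GFP-depleted EC, and those of low genes are understated because of the added value. The middle of the distribution ran from -0.21 (lower quartile) to 0.40 (upper quartile), against -0.50 to 0.36 for all genes. The genes nearest the threshold were Fance (1.53 fold) and Ddb2 (1.57 fold) inside it, and Rev1 (1.45 fold) and Rad50 (1.41 fold) outside it. The whole counting interval lay past 1.5 fold for 8 of the 10 genes higher in bulk EC and 11 of the 16 higher in GFP-depleted EC (16.5% and 8.68% of all genes with an exon length). After subtraction of the trend of the log2 ratio on exonic GC content, 9 and 13 repair genes passed 1.5 fold (17.3% and 14.9% of all genes), and the median was 0.08 against 0.03 for all genes.

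**Figure D2:**
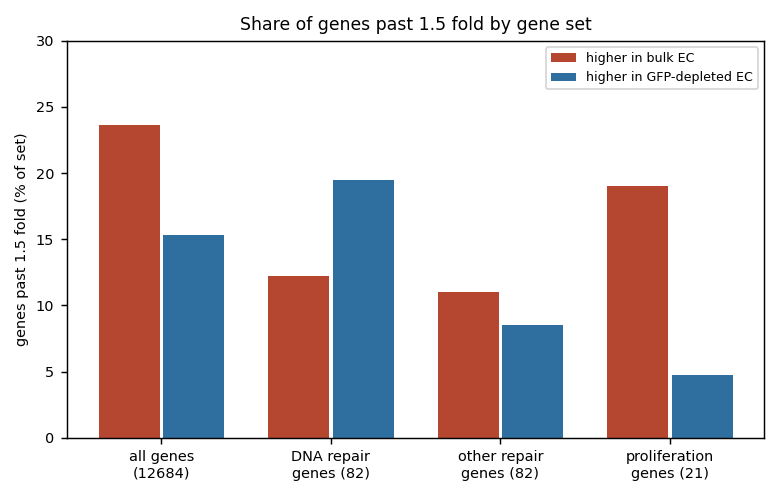
Percent of genes past 1.5 fold in each direction for all 12684 genes, the 82 repair genes, 82 other repair genes and 21 proliferation genes. Past 1.5 fold toward bulk EC were 12.2% of repair genes against 23.6% of all genes, and toward GFP-depleted EC 19.5% against 15.3%.

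The FA core complex held no gene higher in bulk EC and 3 of 7 higher in GFP-depleted EC (23.6% and 15.3% of all genes). Fancb, an X-linked subunit of the catalytic module (ENSMUSG00000047757, mm9 chrX:161418636-161435204), was at 14.6 and 6.94 RPKM and thus 2.10-fold higher in GFP-depleted EC, with 95% counting limits of 1.92 and 2.29. Fancl (ENSMUSG00000004018, chr11:26287084-26371876), the ubiquitin ligase of the same module, was at 20.6 and 11.3 RPKM and 1.83-fold higher (1.70 to 1.96). Of the exonic bases of Fancl, 13.7% lie in another gene as well. The third subunit of their module, FAAP100, stands in the table as 2310003H01Rik and was not taken by the pattern. It was at 6.44 and 15.1 RPKM and thus 2.35-fold higher in bulk EC, opposite to Fancb and Fancl, with log2 ratios of -1.20 and -0.54 before and after GC correction. Fance, which bridges the core to FANCD2, was low at 2.43 and 1.59 RPKM, and its interval of 1.24 to 1.87 reached below the threshold. Its exons are rich in GC (60.1%), and its log2 ratio moved from 0.53 to 1.28 on GC correction, whereas Fancb (1.04 to 0.86) and Fancl (0.85 to 0.64) moved the other way. Remaining core genes lay within 1.5 fold. These were Fancg (12.96 and 10.48 RPKM), Fancc (5.49 and 4.89), Fanca (2.88 and 3.11) and Fancm (1.77 and 1.98), the translocase that anchors the core on DNA. Among these 7 genes Fancl was the highest in both libraries, while the lowest was Fancm in GFP-depleted EC but Fance in bulk EC.

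The substrates of the core lay within 1.5 fold. Fancd2 was at 3.20 and 2.45 RPKM (1.31 fold, interval 1.17 to 1.46) and its partner Fanci at 8.37 and 6.64 RPKM (1.26 fold, 1.16 to 1.37), both on the side of GFP-depleted EC. Usp1, the enzyme that takes the ubiquitin off again, was at 11.6 and 12.1 RPKM. Over the 9 genes with a Fanc symbol, 3 calls (33.3%) were for GFP-depleted EC and 0 for bulk EC, against 15.3% and 23.6% of all genes. Of their log2 ratios 7 were positive, and the median was 0.32 before and 0.24 after GC correction. The 10 other FA and crosslink genes, outside the pattern, had 2 calls for bulk EC and 0 for GFP-depleted EC. Of their log2 ratios 6 were negative, and the median was -0.07 before and 0.06 after GC correction.

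Homologous recombination genes divided by member. Brca2, a mediator of strand exchange, was at 2.80 and 2.64 RPKM (1.06 fold, 0.96 to 1.18), Palb2, which joins BRCA2 to BRCA1, was at 3.81 and 3.40, and Brca1 was at 4.77 and 3.60 (1.33 fold, 1.21 to 1.45). The calls fell on paralog genes whose proteins aid the filament and work in a pair of complexes. Rad51c (ENSMUSG00000007646, chr11:87190152-87218268), a subunit of both complexes, was 1.90-fold higher in GFP-depleted EC (5.32 and 2.80 RPKM, interval 1.68 to 2.14). Rad51l3, which encodes RAD51D, was 1.99-fold higher in bulk EC (3.17 and 6.30 RPKM, 1.73 to 2.30). Xrcc3, the partner of Rad51c in the smaller complex, was 1.597-fold higher in bulk EC (2.43 and 3.87 RPKM, 1.29 to 1.97). Its call was lost on GC correction (log2 ratio -0.61 to -0.14), whereas those of Rad51c (0.86 to 0.74) and Rad51l3 (-0.93 to -0.94) held. The other paralogs Xrcc2 (5.64 and 5.80 RPKM) and Rad51l1 (3.94 and 3.01 RPKM) stayed within 1.5 fold, as did Rad52 (14.9 and 18.4 RPKM), the helicase gene Brip1 (6.84 and 6.54 RPKM) and Rad51ap1 (26.7 and 23.3 RPKM). Rad54b was at 14.4 and 11.4 RPKM, and a further identifier that the gene name table also calls Rad54b was at 0.68 and 1.42 RPKM. In all, the 13 recombination genes had 2 calls for bulk EC and 1 for GFP-depleted EC (23.6% and 15.3% of all genes). Their median log2 ratio was 0.08.

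Genes that sense double-strand breaks contained calls in both directions. H2afx (ENSMUSG00000049932, chr9:44142798-44144154), the histone variant phosphorylated around breaks, was at 25.6 and 70.6 RPKM (2.76 fold toward bulk EC, 2.52 to 3.02). It had the highest exonic GC content of the repair genes (62.6%), and its log2 ratio of -1.45 fell short of the threshold after GC correction (-0.53). Mre11a, the nuclease of the MRN complex, was 1.94-fold higher in bulk EC (5.57 and 10.8 RPKM, 1.76 to 2.13). Its complex partners were within 1.5 fold, Rad50 toward bulk EC (9.73 and 13.8 RPKM, 1.41 fold) and Nbn toward GFP-depleted EC (21.5 and 18.5 RPKM, 1.16 fold). The proteins that read the marked chromatin went the other way. Mdc1, which binds phosphorylated H2AX, was 1.78-fold higher in GFP-depleted EC (5.59 and 3.15 RPKM, 1.62 to 1.94), and Trp53bp1, which steers repair toward end joining, was 1.63-fold higher (14.5 and 8.92 RPKM, 1.56 to 1.69). Other genes overlap 15.0% of the exonic bases of Trp53bp1.

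The apical checkpoint kinases Atr and Atm were both higher in GFP-depleted EC. Atr (ENSMUSG00000032409, chr9:95758058-95852043), which responds to stalled forks, was at 3.92 and 1.62 RPKM (2.42 fold, 2.18 to 2.68). Atm (ENSMUSG00000034218, chr9:53247254-53344845), which responds to breaks, was at 4.46 and 2.13 RPKM (2.09 fold, 1.92 to 2.28). The exons of both have low GC content (41.4% and 42.7%), and both calls held on GC correction, with log2 ratios of 0.96 for Atr and 0.81 for Atm. The effector kinases lay on the same side within 1.5 fold, Chek1 at 11.7 and 8.86 RPKM (1.32 fold, 1.22 to 1.42) and Chek2 at 35.0 and 27.8 RPKM (1.26 fold, 1.19 to 1.34). Rad17, the clamp loader, was at 15.1 and 19.7 RPKM (1.302 fold toward bulk EC), and the clamp genes Rad9 and Rad1 (15.9 and 14.5 RPKM) lay within 1.1 fold. Rad9b was at 3.75 and 4.38 RPKM. Atrip, the partner of ATR, stands in the table under the symbol 6620401K05Rik, so that the pattern did not take it, at 22.0 and 16.5 RPKM. The 8 checkpoint genes had 2 calls for GFP-depleted EC and 0 for bulk EC (15.3% and 23.6% of all genes). Their median log2 ratio was 0.23.

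In end joining, the call was Lig4, the ligase of the pathway, at 4.69 and 2.44 RPKM (1.92 fold toward GFP-depleted EC, 1.68 to 2.18). Its log2 ratio was 0.86, and 0.71 after GC correction. Its scaffold Xrcc4 was at 14.2 and 11.5 RPKM, and the Ku subunits Xrcc6 and Xrcc5 were at 47.5 and 40.5 RPKM and at 18.9 and 21.3 RPKM. In mismatch repair, Pms2 (14.8 and 10.8 RPKM, 1.37 fold) and Mlh3 (2.86 and 2.09 RPKM, 1.37 fold), which act after recognition, lay on the side of GFP-depleted EC within 1.5 fold, and Pms1 was level (6.44 and 6.51 RPKM). Of the recognition proteins, Msh6 was at 10.3 and 13.3 RPKM (1.28 fold). Msh3 (6.42 and 6.39 RPKM) and the meiotic Msh5 (1.34 and 1.15 RPKM) were also within 1.5 fold. The median log2 ratio was 0.26 in end joining and -0.00 in mismatch repair.

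Nucleotide excision repair, with 13 genes, had a median log2 ratio of -0.06. It held 1 call for bulk EC and 2 for GFP-depleted EC (23.6% and 15.3% of all genes). Ercc2 and Ercc3 encode the helicases of TFIIH, which opens the DNA around a lesion. Ercc2 was 2.97-fold higher in bulk EC (0.92 and 2.75 RPKM, 2.29 to 3.99), but 42.7% of its exonic bases are shared with other genes. Ercc3 was 1.61-fold higher in GFP-depleted EC (15.7 and 9.73 RPKM, 1.48 to 1.75), and its interval reached below the threshold. Ddb2, which finds ultraviolet lesions, was 1.57-fold higher in GFP-depleted EC (3.58 and 2.28 RPKM, 1.297 to 1.876), with 23.8% of its exonic bases shared, and its call was lost on GC correction. Xpc, the global sensor, was at 7.78 and 7.03 RPKM (1.106 fold, 1.016 to 1.204), the nuclease pair Ercc1 and Ercc4 was at 66.4 and 66.4 RPKM and at 4.70 and 6.55 RPKM, and Xpa, which verifies damage, was at 6.06 and 7.60 RPKM. These 4 genes were within 1.5 fold. The Cockayne syndrome genes Ercc6 (1.07 and 1.13 RPKM) and Ercc8 (5.89 and 5.35 RPKM), the nuclease Ercc5 (6.04 and 5.13 RPKM) and the XPC partner Rad23b (6.33 and 7.38 RPKM) were within 1.5 fold too.

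Base excision and single-strand break repair held the largest difference toward bulk EC of all 82 genes. Xrcc1 (ENSMUSG00000051768, chr7:25332213-25358453), the scaffold that gathers the polymerase and ligase at a nick, was at 8.20 and 29.3 RPKM (3.58 fold, 3.15 to 4.06). The log2 ratio was -1.80, and -1.12 after GC correction (exonic GC content 59.3%). The glycosylase genes Ung and Ogg1 were also higher there, Ung, which removes uracil, by 2.59 fold (2.39 and 6.18 RPKM, 2.09 to 3.22) and Ogg1, which removes oxidized guanine, by 1.75 fold (3.94 and 6.90 RPKM, 1.45 to 2.14). Ogg1 stood at the threshold after GC correction, with a log2 ratio of -0.59. The enzymes that act with XRCC1 did not move with it. Its ligase partner Lig3 was at 8.21 and 7.36 RPKM, Polb, the gap-filling polymerase, was at 53.6 and 57.2 RPKM, and Parp1, which marks nicks for XRCC1, was at 46.20 and 49.96 RPKM (1.08 fold, 1.04 to 1.13). Parp2 was at 75.7 and 55.4 RPKM (1.37 fold toward GFP-depleted EC). Lig1, the ligase of replication and long patches, was at 65.9 and 63.1 RPKM. Apex2, a minor abasic endonuclease, was 1.598-fold higher in GFP-depleted EC (4.69 and 2.94 RPKM, 1.46 to 1.75), and its call was lost on GC correction. The 10 genes thus had 3 calls for bulk EC and 1 for GFP-depleted EC (23.6% and 15.3% of all genes).

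Among translesion genes, Rev3l, the catalytic subunit of polymerase zeta, was 1.62-fold higher in GFP-depleted EC (3.04 and 1.87 RPKM, 1.48 to 1.78), and its call was lost on GC correction (log2 ratio 0.62 to 0.43). Its scaffold Rev1 was at 6.23 and 4.28 RPKM (1.45 fold), Polh was at 6.26 and 7.50 RPKM, Polk was at 7.24 and 6.40 RPKM, and Rad18, which modifies the replication clamp, was at 23.1 and 25.7 RPKM. The remaining PARP genes had calls in both directions. Parp8 (ENSMUSG00000021725, chr13:117643631-117814323) showed the largest fold of the set, 5.29 (3.91 to 7.26) toward GFP-depleted EC, at 1.63 RPKM against 0.31 RPKM and from 73.5 and 104 reads. Parp4, the PARP of vault particles, was 2.56-fold higher in GFP-depleted EC (2.40 and 0.94 RPKM, 2.19 to 2.97). Parp9, an interferon-inducible partner of DTX3L, was 2.73-fold higher in bulk EC (2.21 and 6.04 RPKM, 2.32 to 3.22), and Parp6 was level at 5.01 and 4.87 RPKM. Rad54l2, which the pattern took by its symbol and which encodes an androgen receptor interacting helicase, was 1.76-fold higher in GFP-depleted EC (3.74 and 2.12 RPKM, 1.596 to 1.940).

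**Figure D3:**
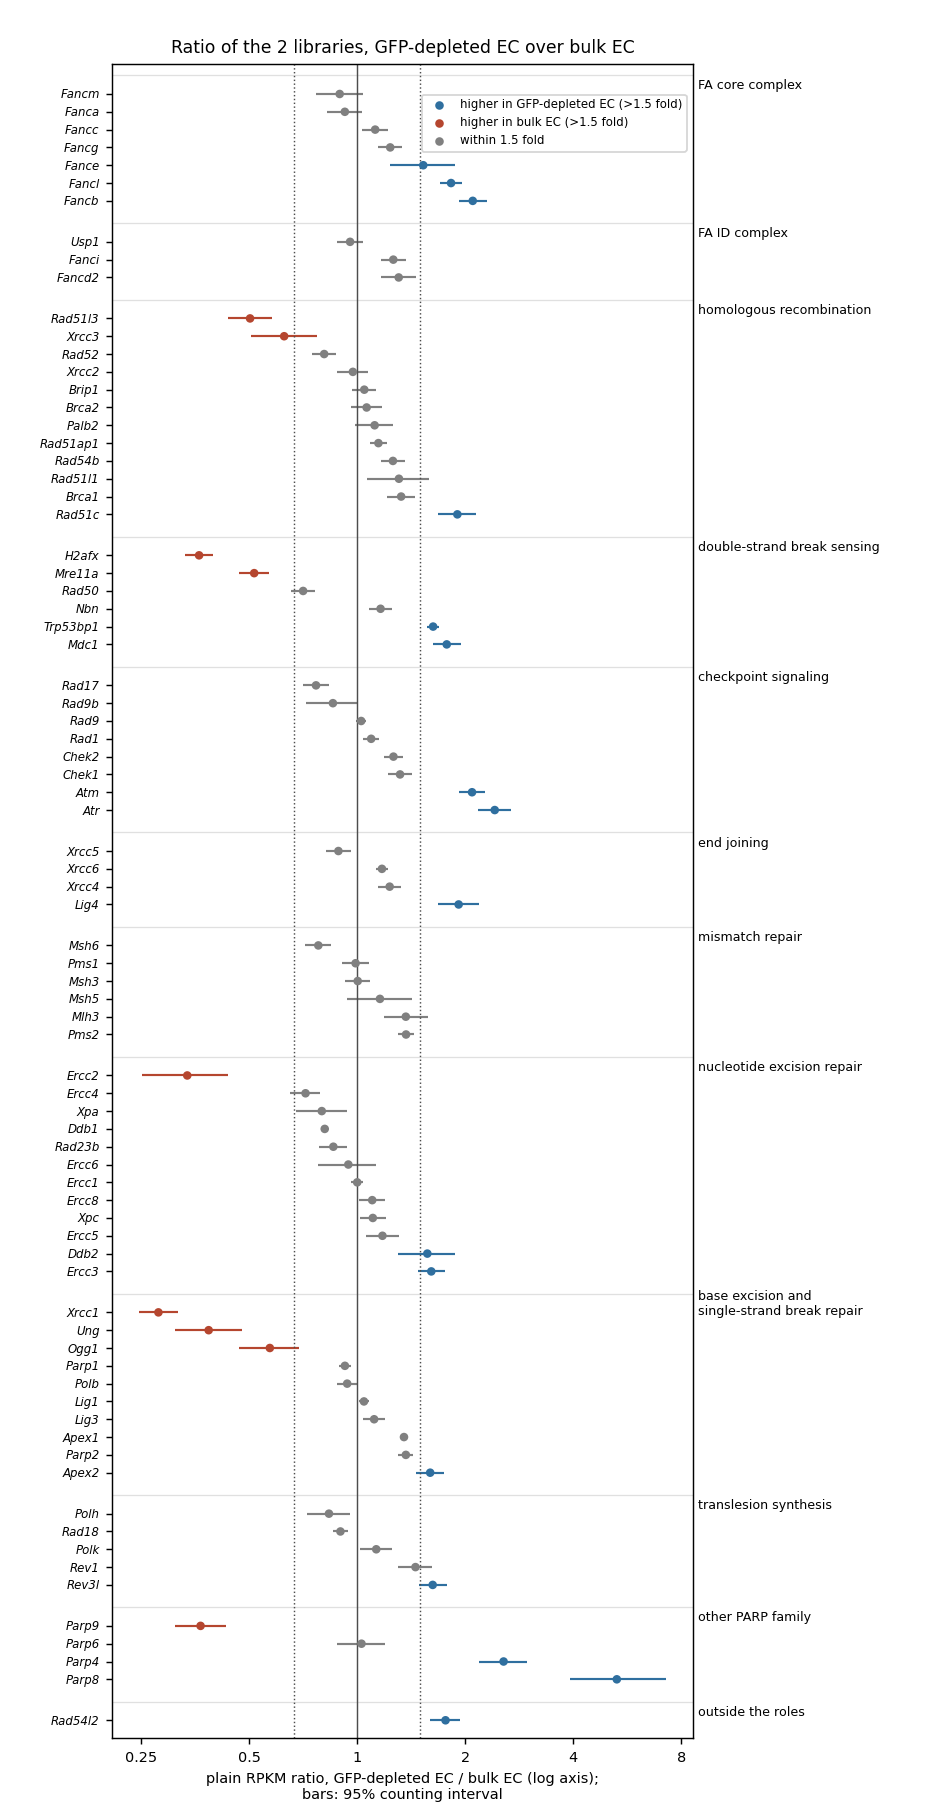
Plain RPKM ratio of GFP-depleted EC over bulk EC for 78 of the repair genes by role, on a log axis, with bars for the 95% counting interval and dotted lines at 1.5 fold. The 16 genes higher in GFP-depleted EC lie to the right, out to Parp8, and those higher in bulk EC lie to the left, out to Xrcc1.

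The direction of the calls moved with base composition. The exonic GC content of repair genes had a median of 46.5%, against 49.6% for all genes with a value. Of the 28 repair genes with the lowest GC content (39.6% to 45.1%), 8 were called for GFP-depleted EC and 0 for bulk EC. Of the 27 with the highest (49.5% to 62.6%), 7 were called for bulk EC and 4 for GFP-depleted EC. The 27 between them held 3 and 4 calls. Of all genes, at any GC content, 23.6% were called for bulk EC and 15.3% for GFP-depleted EC. Calls of all genes within these GC ranges were not counted. The median log2 ratio fell from 0.20 in the repair genes lowest in GC content to 0.00 in the highest. It was 0.18 and -0.25 for all protein-coding genes in the same GC ranges. The Spearman correlation of the log2 ratio with GC content was -0.32 over the 82 repair genes and -0.37 over 11388 protein-coding genes, whose points share the same libraries. After correction it was -0.10 over the repair genes. Direction was also set beside exon length. Of the 27 longest genes (5766 to 14164 exonic bases), 1 was called for bulk EC (Mre11a) and 8 for GFP-depleted EC (among them Atm, Atr and Trp53bp1). The 28 shortest held 5 and 6 calls, and the 27 between them held 4 and 2. Calls for GFP-depleted EC thus did not rise steadily with length. Of all genes, at any length, 23.6% and 15.3% were called in these directions. The median log2 ratio was 0.02 in the shortest and 0.15 in the longest, against -0.09 and 0.04 for all protein-coding genes in the same length ranges. The Spearman correlation of the log2 ratio with exon length was 0.22 over the repair genes and 0.10 over protein-coding genes. After GC correction these were 0.15 and -0.02. Whether base composition or length shaped the ratios was not tested. The calls that did not pass after GC correction were those of Apex2, Ddb2, H2afx, Rev3l and Xrcc3, and Rad50 passed in their place (log2 ratio -0.61). Corrected values include the added 0.3 RPKM, which the plain ratio behind the calls does not. With it, Ddb2 was at a log2 ratio of 0.59 before correction.

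**Figure D4:**
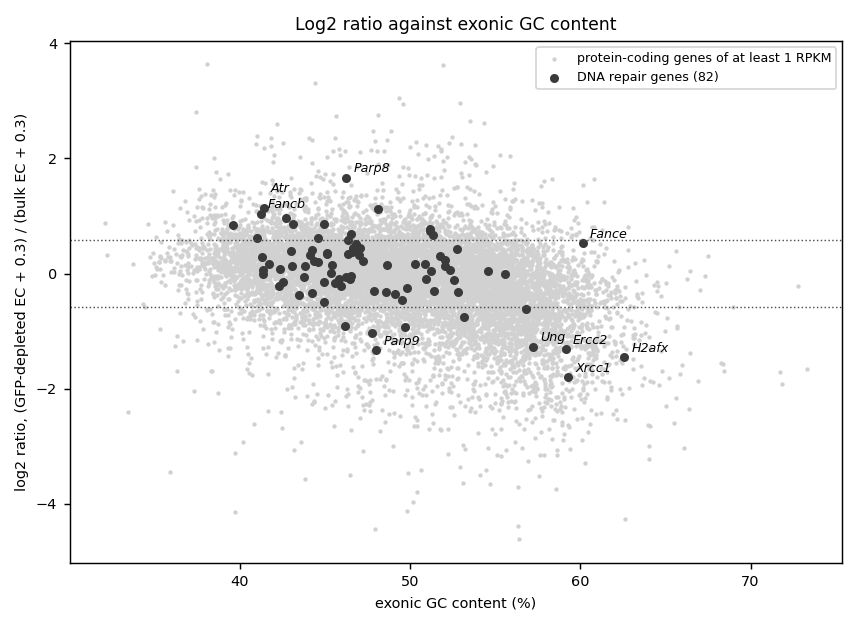
Log2 ratio of GFP-depleted EC over bulk EC against exonic GC content (percent) for the 82 repair genes (dark) and protein-coding genes of at least 1 RPKM (gray), with dotted lines at 1.5 fold. Xrcc1 and H2afx lie at high GC content and toward bulk EC, and Fance lies apart from them at a like GC content, just under the line because 0.3 RPKM was added.

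Further genes of these pathways lie outside the symbol pattern. Of 91 symbols listed, 82 had an entry. Bulk EC had 9 calls (10.98%) and GFP-depleted EC had 7 (8.54%), against 23.6% and 15.3% of all genes. The median log2 ratio of the 82 was 0.10. Among those higher in bulk EC were Polm, a polymerase of end joining (0.68 and 2.65 RPKM, 3.89 fold), Parg, which removes poly(ADP-ribose) (5.40 and 13.4 RPKM, 2.49 fold), Mutyh, the glycosylase for adenine opposite oxidized guanine (4.57 and 10.7 RPKM, 2.35 fold), and Bard1, the partner of BRCA1 (1.84 and 3.94 RPKM, 2.15 fold). Of the other glycosylase genes on the list, Smug1 was 2.07-fold higher in bulk EC (1.05 and 2.17 RPKM), and Nthl1 (17.9 and 13.7 RPKM), Mpg (43.02 and 31.9 RPKM), Neil1, Neil3, Tdg and Mbd4 were within 1.5 fold. Btbd12, which encodes the nuclease scaffold SLX4, was 1.602-fold higher in bulk EC (1.77 and 2.84 RPKM). Its call was lost on GC correction (log2 ratio -0.60 to -0.43). Toward GFP-depleted EC, the resolvase Gen1 was at 6.80 and 3.58 RPKM (1.90 fold) and the nuclease Exo1 at 32.47 and 19.98 RPKM (1.63 fold). Ube2t, the conjugating enzyme for FANCD2, was at 24.98 and 29.46 RPKM. After GC correction, 5 of these other repair genes passed 1.5 fold for bulk EC and 6 for GFP-depleted EC. The shares of all genes were then 17.3% and 14.9%, and the median of the other repair genes was 0.08. Many repair genes are transcribed with the S phase, and proliferation genes were therefore set beside them. Of 21 such genes, 4 (19.0%) were called for bulk EC and 1 (4.76%) for GFP-depleted EC, against 23.6% and 15.3% of all genes. Their median log2 ratio was 0.21. Mcm2 of the replicative helicase was 2.64-fold higher in bulk EC (41.3 and 109 RPKM). The helicase genes Mcm3 to Mcm7 were within 1.5 fold. Mcm6 lay toward bulk EC (128 and 189 RPKM, 1.47 fold), and Mcm3 was level (156 and 158 RPKM). Mcm4 (119 and 104 RPKM), Mcm5 (168 and 145 RPKM) and Mcm7 (82.5 and 68.3 RPKM) lay on the side of GFP-depleted EC. Mki67 was at 29.5 and 25.1 RPKM.

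Promoter sequence was examined because E2F factors drive many repair genes in S phase. RefSeq windows (GRCm38.p6) from 250 bases before to 50 bases after a start were matched by symbol for 61 of the 82 genes, and were placed in mm9 by exact match. The E2F words TTTGGCGC and TTTCCCGC, searched on both strands, were found in 9 of these genes (14.8%), against 3.62% of 7594 genes of the expression table and 1.80% of 27025 genes with a window. These words do not overlap each other. The 9 sites are shown to let the word be read in its context, 36 bases each, 5′ to 3′ on the strand of the gene, with the word or its reverse complement in capitals.
Brca2 (chr5:151325014-151325049, plus strand): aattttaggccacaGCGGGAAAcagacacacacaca
Chek2 (chr5:111268836-111268871, plus strand): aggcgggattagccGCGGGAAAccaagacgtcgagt
Fancg (chr4:43023204-43023239, minus strand): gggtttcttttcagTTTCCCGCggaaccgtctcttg
Mdc1 (chr17:35978413-35978448, plus strand): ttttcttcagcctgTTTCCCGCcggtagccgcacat
Msh3 (chr13:93125139-93125174, minus strand): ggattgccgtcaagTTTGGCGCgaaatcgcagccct
Msh5 (chr17:35183611-35183646, minus strand): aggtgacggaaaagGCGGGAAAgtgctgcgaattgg
Msh6 (chr17:88374391-88374426, plus strand): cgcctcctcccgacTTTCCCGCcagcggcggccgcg
Rad51c (chr11:87218440-87218475, minus strand): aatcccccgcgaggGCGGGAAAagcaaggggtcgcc
Xrcc6 (chr15:81846739-81846774, plus strand): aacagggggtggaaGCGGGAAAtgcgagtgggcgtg
The word began 52 bases before the start in Fancg, 16 before it in Mdc1 and 5 before it in Rad51c, and 16 bases past it in Msh6. Their genes spanned 1.34 RPKM (Msh5) to 47.5 RPKM (Xrcc6) in GFP-depleted EC. Of the 9, 8 had a positive log2 ratio, as did 49 of the 82 repair genes and 6162 of all 12684 genes. The 9 held 2 calls for GFP-depleted EC (Mdc1 and Rad51c) and 0 for bulk EC (15.3% and 23.6% of all genes). Their median was 0.23, and a link between the word and direction was not tested. Msh6 was the exception in sign (-0.35). Other words were searched in the same windows and on both strands. CCAAT, the NF-Y box, was in 34 of the 61 (55.7%, against 43.0% of genes of the table). CCGGAAGT, an ETS word, was in 5 (8.20%, against 9.27%). TTTGAA, the core of the CHR element of late cell cycle genes, was in 2 (3.28%, against 14.2%). A match describes the letters of a window and does not show binding.

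Many repair genes lie head to head with a neighbor. In GENCODE M1, 22 of the 82 (26.8%) had a protein-coding gene on the opposite strand with its 5′ end within 1000 bases, against 11.7% of 11206 protein-coding genes of the table. An entry existed for 20 of the neighbors. In 4 pairs both genes were called and in the same direction, and in 0 pairs in opposite directions. Over all 576 such pairs of the table, 32 (5.56%) were called in the same direction and 14 (2.43%) in opposite directions. Fancb and Mospd2, with 5′ ends 217 bases apart, were 2.10-fold and 1.87-fold higher in GFP-depleted EC (Mospd2 at 10.4 and 5.55 RPKM). Rad51c and Tex14, 111 bases apart, were 1.90-fold and 2.14-fold higher there (Tex14 at 1.11 and 0.52 RPKM). Lig4 and Abhd13, 21 bases apart, were 1.92-fold and 1.62-fold higher there (Abhd13 at 1.56 and 0.96 RPKM). Xrcc3 and Zfyve21, 297 bases apart, were 1.597-fold and 4.36-fold higher in bulk EC (Zfyve21 at 11.47 and 50.05 RPKM). The shared promoters of Fancb, Rad51c and Lig4 are given here as 300-base windows on the strand of the repair gene, with capitals from the 5′ end of the neighbor to that of the repair gene.
Fancb (chrX:161418274-161418573, plus strand): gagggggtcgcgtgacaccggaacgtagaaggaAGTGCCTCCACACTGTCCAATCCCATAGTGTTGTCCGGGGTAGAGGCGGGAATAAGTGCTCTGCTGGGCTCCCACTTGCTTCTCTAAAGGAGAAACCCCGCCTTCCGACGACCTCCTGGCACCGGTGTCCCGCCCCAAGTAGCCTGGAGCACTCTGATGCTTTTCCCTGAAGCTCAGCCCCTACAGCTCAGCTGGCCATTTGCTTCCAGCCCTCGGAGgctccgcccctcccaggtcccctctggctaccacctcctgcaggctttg
Rad51c (chr11:87218407-87218706, minus strand): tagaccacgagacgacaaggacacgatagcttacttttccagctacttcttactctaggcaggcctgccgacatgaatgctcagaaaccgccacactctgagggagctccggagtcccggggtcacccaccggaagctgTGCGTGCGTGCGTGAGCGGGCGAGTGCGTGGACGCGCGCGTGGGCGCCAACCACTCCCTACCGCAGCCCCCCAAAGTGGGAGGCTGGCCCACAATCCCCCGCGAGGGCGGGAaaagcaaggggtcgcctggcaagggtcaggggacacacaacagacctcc
Lig4 (chr8:9977631-9977930, minus strand): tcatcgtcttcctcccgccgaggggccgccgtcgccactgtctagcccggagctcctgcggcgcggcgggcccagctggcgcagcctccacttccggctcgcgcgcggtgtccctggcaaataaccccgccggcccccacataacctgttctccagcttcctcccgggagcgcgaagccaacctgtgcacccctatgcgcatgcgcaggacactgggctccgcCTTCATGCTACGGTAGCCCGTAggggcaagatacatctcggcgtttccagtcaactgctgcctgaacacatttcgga
The windows had a GC content of 61.7%, 64.0% and 66.3%, with 13, 24 and 30 CpG pairs. In Rad51c the E2F word lies across the start, at the end of the capitals. The gene models of the authors start at other positions in part, so the 5′ ends hold for GENCODE M1. Other pairs did not share a call. Atm was 2.09-fold higher in GFP-depleted EC, and Npat, 307 bases away, was at 9.55 and 7.90 RPKM. Brca1 and Nbr1, 194 bases apart, were both within 1.5 fold (Nbr1 at 9.23 and 8.45 RPKM). Fancd2 and Tmem111, 44 bases apart, had log2 ratios of opposite sign, 0.35 and -0.35. Over the 20 pairs, 13 had log2 ratios of the same sign and the Spearman correlation was 0.38 (0.39 after GC correction), where members of a pair share libraries and can share base composition. Over the 576 pairs, 311 (54.0%) had the same sign. Their correlation was 0.11 with each pair entered in both orders, unlike that over the 20 pairs, where the repair gene always came first. These shares are descriptions, and their difference was not tested.

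**Figure D5:**
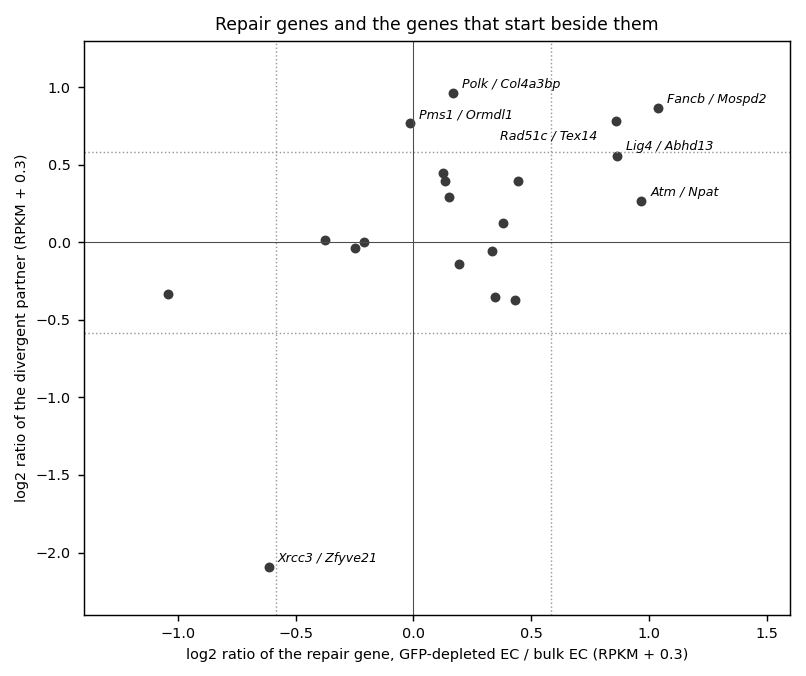
Log2 ratio of GFP-depleted EC over bulk EC for each of 20 repair genes (horizontal axis) and its head-to-head neighbor (vertical axis), with dotted lines at 1.5 fold. In 13 of the 20 pairs both genes have the same sign, and the 4 pairs with both genes past 1.5 fold by plain ratio are those of Fancb, Rad51c, Lig4 and Xrcc3, where Abhd13 of the Lig4 pair lies just under the line because 0.3 RPKM was added.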

How the data were processed

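RNA was measured in 1 library of bulk EC and 1 of GFP-depleted EC. The study made cDNA by SMART amplification, sequenced both libraries on the same HiSeq lane and mapped the reads to mm9. BWA 0.5.7 and Cuffdiff stand in the submitters' processing notes. What each did, which gene models were used, how reads were counted and whether strand was used is not given in the sources used here. As RPKM, the authors deposited a value per gene and library, and a fold column of their own comparison, which was not used. Of 12899 entries, 215 repeated symbols were dropped, keeping the entry with the highest mean, which left 12684 genes. The lowest mean of a gene was 0.500 RPKM, so the minimum of 0.3 RPKM used by the study removed none. Amplification of little RNA can change the recovery of long and GC-rich transcripts.

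A gene was called when the plain RPKM ratio passed 1.5. Log2 ratios used a pseudocount of 0.3 RPKM. Depth was recovered from RPKM steps in features shorter than 150 bases, where 98.9% of 184 values in GFP-depleted EC and 100% of 48 in bulk EC lay within 0.15 of a whole multiple (chance gives 30%). Read numbers used exon lengths of GENCODE M1, and are approximate, since only 19 of 82 genes had the same start and end in the deposited table. Intervals are exact conditional binomial intervals at 95%, and amplified reads are not independent molecules. The GC trend was a lowess curve (fraction 0.3, 3 iterations) over protein-coding genes with 1 RPKM or more. GC content was available for 82 of 82 repair genes and for 12144 genes in all. Python 3.11.15, numpy 2.4.6, pandas 2.3.3, scipy 1.17.1, statsmodels 0.14.6 and matplotlib 3.10.9 were used, and the scripts were tested on simulated data.

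Repair genes and lists were chosen with earlier results of these data known. Values were given for every repair gene past 1.5 fold, for up to 4 genes per role with the largest log2 ratio, for all FA genes and for Brca1, Brca2, Atm, Atr, Chek1, Trp53bp1, H2afx, Parp1 and Xpc. A few genes that the rule takes are not reported here by name, and the counts include them. Of the other repair lists, at most 4 genes each could be named. Mki67, the neighbors and the glycosylase genes Smug1, Nthl1, Mpg, Neil1, Neil3, Tdg and Mbd4 were named after their values were seen. So were the Mcm genes other than Mcm2, and Lum, Clec1b, Pf4 and the p53 targets Mdm2 and Bax. In the list of other FA genes, a symbol first entered for Faap100 belonged to another gene and was replaced by 2310003H01Rik after the data were seen. The alternatives tried were pseudocounts, filters, median centring, GC correction, quantile scaling, a threshold of 2 fold, summed repeated symbols, the whole counting interval and leaving out genes with shared exons. The last 2 were chosen after seeing the data.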

Additional observations from a re-analysis of the deposited data

How the results depend on the processing

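No call changed direction under any alternative run. With a threshold of 2 fold, 6 calls were for bulk EC and 5 for GFP-depleted EC (13.3% and 6.61% of all genes), so that the share of calls toward GFP-depleted EC went from 61.5% to 45.5%. The 2 alternatives chosen after seeing the data gave 8 and 11 genes (whole counting interval past 1.5 fold) and 8 and 13 of 70 genes (without those sharing over 10% of exonic bases). The other alternatives gave 9 to 10 genes toward bulk EC and 12 to 18 toward GFP-depleted EC. The median log2 ratio ran from 0.08 with GC correction to 0.25 with quantile scaling, where the median of all genes was 0.07. Pseudocount 1 lost the calls of Apex2, Ddb2, Fance, Rev3l and Xrcc3. Under that setting calls were made on the ratio with 1 RPKM added to both values, which by itself lowers the ratios of low genes. The median half-width of the counting interval was 0.13 on the log2 scale, and 0.45 at most. No paired analysis was possible because bulk EC and GFP-depleted EC had 1 library each, and no replicate could be left out.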

Other observations

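Targets of p53, which responds to DNA damage, were read as a further list. Of 13 with an entry, 5 (38.5%) were called for bulk EC and 2 (15.4%) for GFP-depleted EC, against 23.6% and 15.3% of all genes. The median log2 ratio was -0.19 against -0.02 for all genes. Cdkn1a, the inhibitor that halts the cycle, was at 15.6 and 33.5 RPKM (GFP-depleted EC first, 2.15 fold), and Rrm2b, the p53-induced subunit of ribonucleotide reductase, was at 0.79 and 2.33 RPKM (2.96 fold). Gadd45a (6.04 and 11.8 RPKM) and Phlda3 (2.54 and 7.02 RPKM) were also higher in bulk EC. Trp53inp1 was 3.06-fold higher in GFP-depleted EC (3.26 and 1.06 RPKM). The list shares Ddb2, Xpc and Polk with the repair genes. Trp53 itself was at 108 and 90.5 RPKM. Phlda3 and Sesn2 had log2 ratios of -0.50 and -0.19 after GC correction, within 1.5 fold. Mdm2 then passed toward bulk EC (-0.61) and Bax toward GFP-depleted EC (0.81), so that 4 targets passed for bulk EC and 2 for GFP-depleted EC.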
